A study of Mus musculus with 26 samples.

Results

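Dorsal root ganglia of uninjured (naive) mice were compared between 3 Ahr conditional knockout (cKO) and 3 control animals, which are 6 of the 26 RNA sequencing libraries of the study. The members were taken by their labels, and 1 library is the pooled L4-L6 lumbar ganglia of 1 mouse. The cKO mice were Ahr f/f with the transgene Thy1-CRE(ERT2/EYFP), in which the neuronal *Thy1* promoter drives a tamoxifen-activated Cre recombinase together with a yellow fluorescent protein. Control replicates 1 and 2 were Ahr fl/+ and control replicate 3 was Ahr fl/fl, and no control carries Cre. All 6 mice are labelled female. Per the series' design text, both groups were given tamoxifen, 100 mg/kg on each of 5 days, when 28 weeks old, so the drug is common to cKO and control. Ganglia were taken 5 weeks later, between 2 and 4 hours after lights on. Every cKO mouse and no control mouse carries the transgene, so the presence of the transgene and the loss of *Ahr* cannot be told apart in any comparison here. Other mice of the study served as a side comparison. They gave ganglia 1 day after sciatic nerve crush (3 mice per genotype) and ganglia 1 day after sham surgery from both sides of 2 mice per genotype. Neurons after 24 hours in culture (3 per genotype) were the last set. The crushed libraries also entered the fit behind every naive SE and p, with a shared gene filter and estimate of spread. The crushed mice had the same age at tamoxifen, dose and wait of 5 weeks, and their sex is given below.

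A dorsal root ganglion holds the cell bodies of the sensory neurons of the limb and trunk, each wrapped by satellite glia, together with Schwann cells around the axons, resident macrophages, vessels and connective tissue. AhR, the product of *Ahr*, is a ligand-activated transcription factor of the basic helix-loop-helix PAS family. It waits in the cytoplasm with Hsp90 and the co-chaperone p23, enters the nucleus on ligand binding, pairs with ARNT and binds DNA at xenobiotic response elements. Its best known targets are detoxifying enzymes (*Cyp1a1*, *Cyp1b1*) and its own inhibitors (*Ahrr*, *Tiparp*). The series' title concerns the regrowth of axons after injury. The comparison below addresses what the genotype alone does before any injury, and how alike the 6 ganglia were in their cell content.

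Total counts were 20930126 to 23491032 per library. The tissue carried its label: *Tubb3*, *Prph* and *Avil*, markers of sensory neurons, were at 974.9 to 1098, 742 to 827 and 251 to 288 CPM (counts scaled to the TMM-adjusted library size), and *Apoe* of satellite glia was at 1126 to 1254 CPM. Of the 8 genes of the spinal cord list, *Olig2*, *Chat* and *Mnx1* stayed at or under 0.0929 CPM and *Mog* at or under 0.464 CPM, while *Hoxd11* was at 1.45 to 5.68, *Cldn11* at 15.7 to 47.5, *Aqp4* at 20.9 to 25.7 and *Gja1* at 42.7 to 75.1 CPM. Control replicate 1 stood apart from the other 5 libraries. On the first principal component, which held 44.66% of the variance, it lay at -45.33 while the others lay between -11.66 and 22.83. All 6 naive libraries carried female transcripts (*Xist* and no more than 2 counts of 4 Y-linked genes), as labelled. Among the 6 crushed libraries, which share the fit below, 2 went against their labelled sex: control replicate 3, labelled male, held 338 *Xist* and 2 Y-linked counts, and cKO replicate 2, labelled female, held 0 and 1641. By transcripts the crushed controls were all female and cKO replicates 2 and 3 male, so sex and genotype are partly confounded there, and values without these libraries are given beside the results they touch. The 8 sham libraries were male and the 6 cultured ones female, as labelled.

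*Ahr* lies on the minus strand of chromosome 12, from 35497974 to 35535038 (GRCm38, GENCODE M21, ENSMUSG00000019256.17). It had 1 count for the whole gene, so a transcript that lacks only the floxed part still counts. It was at 18.9, 23.8 and 23.8 CPM in control replicates 1 to 3 and at 24.2, 28.1 and 22.7 CPM in cKO replicates 1 to 3. The groups overlapped. On the log2 scale cKO exceeded control by 0.17 (SE 0.096, 95% interval -0.036 to 0.38), with an adjusted p of 0.754 by edgeR's quasi-likelihood test. The gene-level count therefore does not check the genotype, and the groups below are the labelled ones.

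Only 2 of the 21261 genes tested, 0.00941%, differed between the genotypes at an adjusted p under 0.05 (edgeR's quasi-likelihood test, Benjamini-Hochberg adjustment). *Thy1*, which encodes a glycolipid-anchored adhesion protein of the neuronal surface and whose promoter drives the transgene, was higher in cKO ganglia. *Cadps*, which encodes CAPS1, a protein that primes dense-core vesicles for release, was lower. Both calls depended on which libraries entered the fit, as given below. The next smallest adjusted p was 0.754. DESeq2 called 3 genes, adding *Pdlim2*.

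*Thy1* (ENSMUSG00000032011.5, chromosome 9, 44043384 to 44048579, plus strand) was at 707, 807 and 712 CPM in the controls and at 1382, 1252 and 1416 CPM in the cKO mice. The lowest cKO library stood well above the highest control. The log2 fold change was 0.86 (SE 0.076, 95% interval 0.70 to 1.03, adjusted p = 0.00191, edgeR), and all 3 cKO mice were above all 3 controls. Counts from the endogenous gene and from any *Thy1* sequence of the transgene were not separated, since the tables hold 1 count per gene. In mice outside the naive comparison it was 0.79 in crushed ganglia, 1.01 in cultured neurons and 0.61 in sham ganglia, with no overlap between genotypes in any set. The cultured neurons were not called (adjusted p = 0.298, edgeR). The sham and cultured values come from fits of their own, and their difference from the naive value was not tested.

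*Cadps* (ENSMUSG00000054423.14, chromosome 14, 12372563 to 12823079, minus strand) was at 332, 408 and 367 CPM in the controls and at 217, 190.4 and 225 CPM in the cKO mice. Again no library of one group reached the other group. The log2 fold change was -0.81 (SE 0.085, 95% interval -0.99 to -0.62, adjusted p = 0.00739, edgeR). It was -0.82 in crushed ganglia, -0.77 in cultured neurons and -0.99 in sham ganglia, without overlap in each. The crushed ganglia were called as well (adjusted p = 0.0059, edgeR), whereas the cultured neurons were not (adjusted p = 0.197, edgeR), and the sham fit treats both sides of an animal as separate libraries, so its p-value would be too small and is not given. When the 6 naive libraries were fitted without the crushed ones, neither gene was called, at log2 fold changes of 0.85 for *Thy1* (adjusted p = 0.104, edgeR) and -0.82 for *Cadps* (adjusted p = 0.283, edgeR). The *Cadps* call was also lost when control replicate 3 was left out (adjusted p = 0.063), and likewise for cKO replicate 1 (0.0744) and cKO replicate 2 (0.0547), with log2 fold changes of -0.81, -0.82 and -0.73. Without the 2 crushed libraries that went against their labelled sex, *Thy1* alone was called in naive ganglia (adjusted p = 0.0169, edgeR), and *Cadps* had the same -0.81 (adjusted p = 0.0982, edgeR). Without the 2 crushed cKO libraries of male transcripts the values were 0.87 (adjusted p = 0.00782, edgeR) and -0.80 (adjusted p = 0.0933, edgeR). In crushed ganglia, neither gene was called under either choice: *Thy1* differed by 0.74 (adjusted p = 0.411, edgeR) and 0.67 (adjusted p = 0.924, edgeR), and *Cadps* by -0.82 (adjusted p = 0.465, edgeR) and -0.78 (adjusted p = 0.924, edgeR), the last with 1 crushed cKO library assumed to vary like the other groups.

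**Figure D1:**
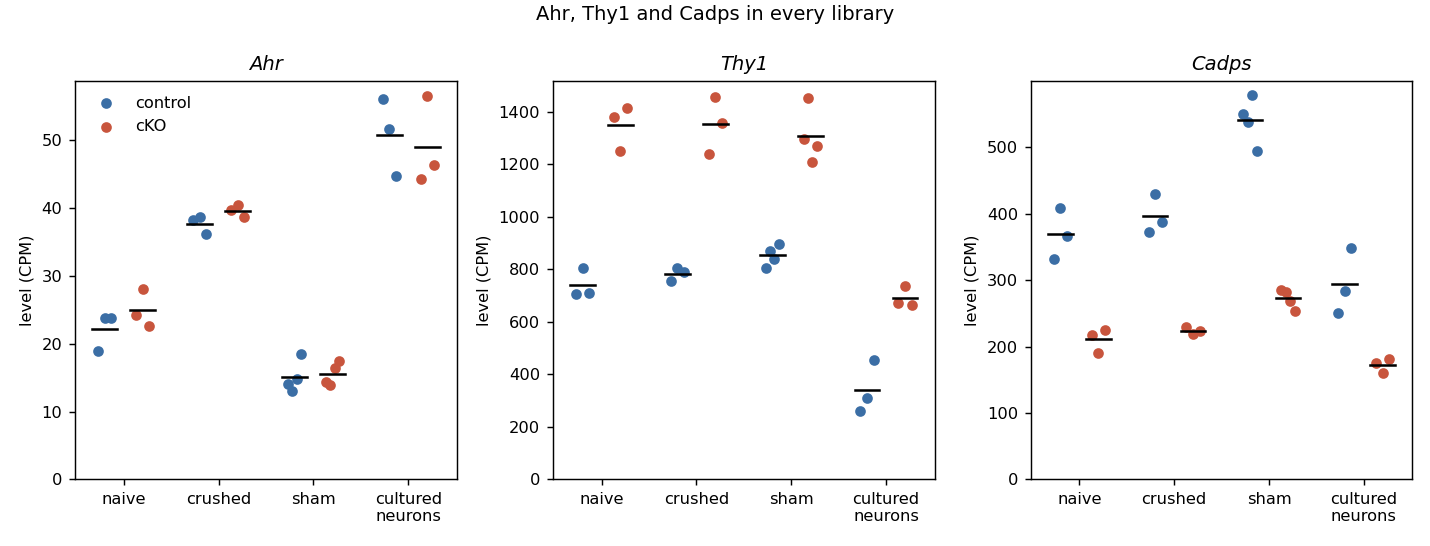
Levels of *Ahr*, *Thy1* and *Cadps* (CPM, linear axes from 0) in every library of the 4 sets, 1 point per library and a bar at the group mean, with controls in blue and cKO in red; the 4 sham points per genotype come from both sides of 2 mice. *Thy1* is higher and *Cadps* lower in cKO in every set without overlap, while *Ahr* overlaps in the naive ganglia (18.9 to 23.8 against 22.7 to 28.1 CPM).

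The tested genes beside these loci, 5 on each side, were read as well, leaving out clone, model and predicted names. None of the 20 was called by edgeR or DESeq2. An unadjusted p under 0.05 by edgeR was reached by 2, beside 5.79% of all genes tested. *Nectin1* and *Arhgef12* were higher and *Pdhb* lower without overlap, beside 6.14% and 5.32% of all genes tested. The nearest of the 20 before *Thy1* is *Nectin1*, an adhesion molecule gene 235.9 kb away. It was at 34.5, 40.7 and 38.1 CPM in controls and 48.8, 47.6 and 43.5 CPM in cKO, without overlap, with a log2 fold change of 0.30 (SE 0.081, adjusted p = 0.754, edgeR). In crushed ganglia its fold change was -0.12, or -0.10 without the 2 libraries against their labelled sex and -0.24 without the 2 male ones. *Usp2*, a deubiquitinase gene 18.4 kb on the other side, differed by 0.091 (SE 0.221). Beside *Cadps*, *Ptprg* (a receptor phosphatase gene 130.5 kb away) differed by 0.16 (SE 0.078) and *Synpr* (a synaptic vesicle protein gene 461.7 kb away) by -0.04 (SE 0.132), both with overlap.

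**Figure D2:**
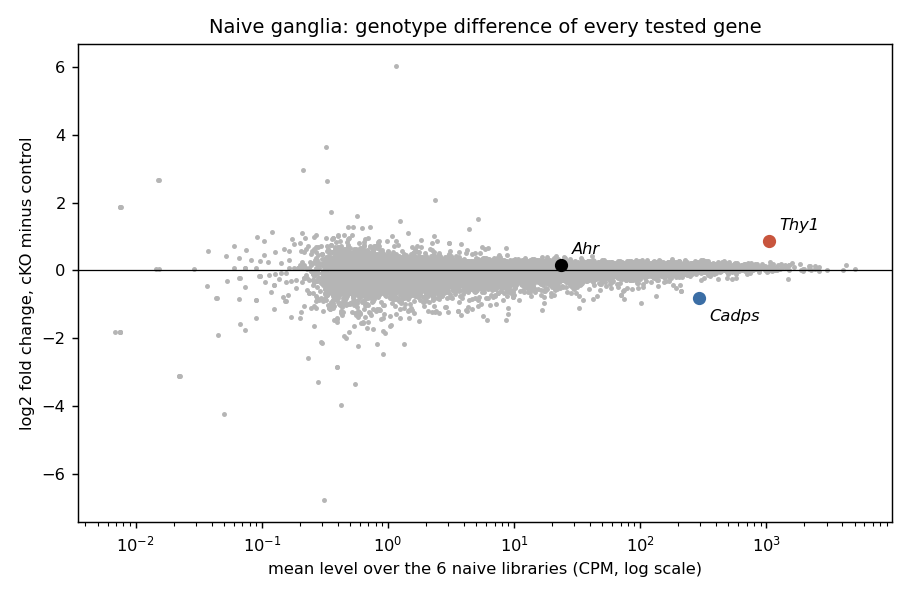
Log2 fold change of cKO against control in naive ganglia (y axis) against the mean level over the 6 naive libraries (x axis, CPM, log scale) for the 21261 genes tested, 1 point per gene. *Thy1* at 0.86 and *Cadps* at -0.81 stand outside the band of genes of their level; *Ahr* lies inside it at 0.17.

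The precision of the comparison differed with expression. The 95% interval lay within 2-fold in either direction for 90.2% of the genes tested and within 1.5-fold for 74.6%. Among the 11851 genes with a mean of at least 10 CPM, 96.2% had an interval within 1.5-fold. That 96.2% does not include *Thy1* and *Cadps*. Each interval was set at 95% on its own, so a share of them may miss the true difference. The intervals describe the whole ganglion and do not bound a change confined to some of its cells. Groups did not overlap for 11.5% of the tested genes, with 6.14% higher and 5.32% lower in cKO. An unadjusted p under 0.05 was reached by 5.79% of the genes, 657 higher and 575 lower.

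The genes of smallest p after *Thy1* and *Cadps* were taken among genes of at least 1 CPM without overlap. Clone, model, predicted and sex-linked names were left out. The differences of those higher in cKO were modest. The 9 that were higher in cKO included *Tiam2*, a Rac exchange factor gene. It was at 24.5, 25.3 and 24.6 CPM in controls and 29.8, 29.96 and 28.7 CPM in cKO, a log2 difference of 0.25 (SE 0.050). *Tfb1m* overlaps *Tiam2* and its counts came to 44.2% of those of *Tiam2*, so this value is uncertain. *Lrp8*, which encodes a receptor for reelin and apolipoprotein E, was at 41.5, 45.5 and 42.02 CPM in controls and 52.3, 48.1 and 51.8 CPM in cKO. *Runx1*, which encodes a transcription factor of the non-peptidergic nociceptor lineage, was at 93.2, 105.6 and 107 CPM in controls and 137, 118 and 123 CPM in cKO, a log2 difference of 0.30 (SE 0.075). *Mst1r*, a receptor tyrosine kinase gene, had the greatest difference of the 9 at 0.38 (SE 0.094), from 4.96 to 5.74 CPM in controls and 6.41 to 7.28 CPM in cKO. The other 5, *Fbxl18*, *Diras2*, *Mtss1*, *Ankrd6* and *Osbpl8*, differed by 0.20 to 0.27.

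The 9 genes of smallest p that were lower in cKO differed by -1.10 to -0.20 on the log2 scale. *Pdlim2*, which encodes a PDZ and LIM domain protein, was at 41.98, 32.2 and 39.4 CPM in controls and 27.3, 25.7 and 18.3 CPM in cKO, a log2 difference of -0.67 (SE 0.141). It was the gene that DESeq2 called in addition (adjusted p = 0.047), against an adjusted p of 0.754 by edgeR. *Ccl7*, a chemokine that attracts monocytes, was at 2.92, 1.63 and 1.74 CPM in controls and 0.836, 1.28 and 0.807 CPM in cKO, a difference of -1.10 (SE 0.258). *Pvalb*, the calcium-binding protein of proprioceptors, was at 72.7, 76.8 and 68.4 CPM in controls and 59.5, 60.8 and 65.5 CPM in cKO, a difference of -0.23 (SE 0.059). *Gjb5* (a connexin gene) differed by -0.997 (SE 0.214), and *Zfp972*, *Phlda3*, *Tmem40*, *Eci2* and *H2-Q6* by -0.67 to -0.20. *H2-Q6* belongs to a family of near-identical class I histocompatibility genes, and a gene that overlaps *Eci2* had counts of 44.3% of its own.

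These 18 genes were then read in other mice, of which the crushed ones shared the fit, and so its estimate of spread, with the naive ones. Of the 9 higher genes, 3 were higher in crushed, 1 in cultured and 6 in sham cKO samples. Of the 9 lower genes, 5 were lower in crushed, 0 in cultured and 3 in sham cKO samples. Over all genes higher in naive cKO, the share of the same sign was 56.7%, 48.1% and 48.3% in those 3 sets, and over all lower genes 57.1%, 47.4% and 44.8%. *Mst1r* kept its sign in every set (0.19 crushed, 0.30 cultured, 0.049 sham), as *Pvalb* did in none (0.062, 0.59 and 0.20). Within the fit of the 12 naive and crushed libraries, the genotype effect differed between them for 0 genes by edgeR, with 627 at an unadjusted p under 0.05, and for 0 genes by DESeq2, with 362. Without the 2 crushed libraries that went against their labelled sex, 5 of the 9 higher and 5 of the 9 lower genes took the same sign in crushed ganglia, against 55.5% and 55.7% of all genes, and without the 2 male crushed libraries 4 and 5 did, against 53.7% and 55.0%. The crushed values were then 0.18 and 0.13 for *Mst1r* and 0.079 and 0.095 for *Pvalb*. The genotype effect differed for 0 genes by edgeR in both fits, with 792 and 1022 at an unadjusted p under 0.05.

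**Figure D3:**
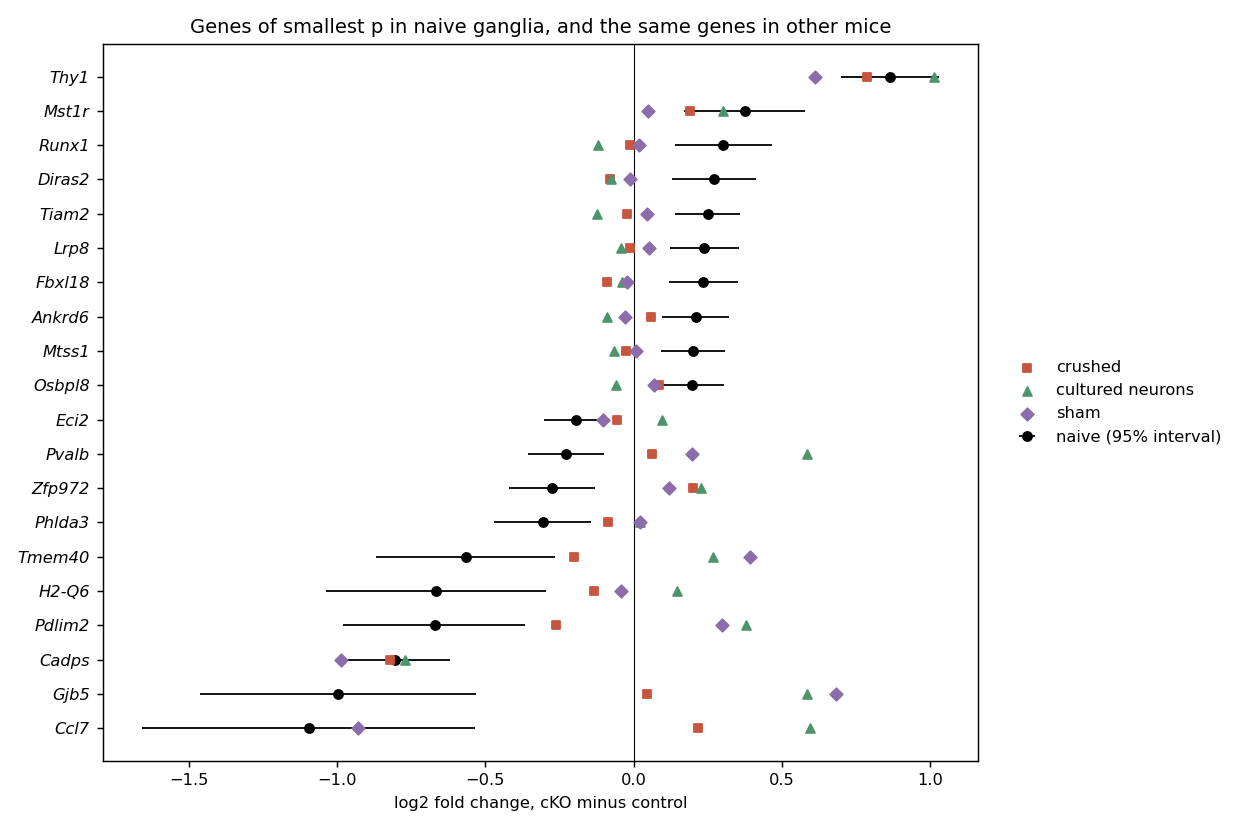
Log2 fold change of cKO against control for the 20 genes of smallest p in naive ganglia under the text's filters (black, with 95% interval). The other symbols give the same genes in crushed ganglia, cultured neurons and sham ganglia of other mice. *Thy1* and *Cadps* take the same sign in all sets; of the other 9 higher and 9 lower genes, 3 and 5 keep their sign in crushed ganglia.

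Several of the largest fold changes were carried by few libraries. Among genes with a mean of at least 1 CPM, 52 differed by 1 log2 unit or more, 8 higher and 44 lower in cKO. None of the 52 was called by edgeR or DESeq2, and 13 had an unadjusted p under 0.05 by edgeR. *Ccl7*, given above, is among the 52 and did not overlap between the groups. Its difference stayed between -1.34 and -0.78 when 1 library was left out. *Ighg3*, an immunoglobulin heavy chain gene, was at 0.0449, 0 and 0.0413 CPM in controls and 0.0464, 5.18 and 1.61 CPM in cKO. *Capn11*, a calpain gene, was at 7.43 CPM in cKO replicate 1, 3.36 in cKO replicate 3 and 0.641 to 1.08 in the other 4 libraries. *Bglap* (osteocalcin, a product of bone-forming cells) was at 16.8 CPM in cKO replicate 3 and 0.279 to 3.88 in the others, and its difference of 1.23 became -1.55 without that library. In the other direction, *Tnni2*, *Myl1* and *Myh1*, genes of fast skeletal muscle, were at 5.30, 3.78 and 4.36 CPM in control replicate 1 and at most 1.12, 0.987 and 1.35 CPM elsewhere. Without control replicate 1, the differences of *Myl1* (-1.64) and *Myh1* (-1.62) became 0.027 and 1.11. *Ighg2b* and *Fgfbp1* were likewise highest in control replicate 1, at 24.9 and 16.2 CPM against at most 8.52 and 7.36 CPM elsewhere.

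No target of AhR differed past the threshold. Counts of whole ganglia do not separate neurons, where the *Thy1* promoter drives Cre, from other cells. A change of these targets in neurons alone was not tested here. Of 10 listed, 8 were tested, 4 were higher and 4 lower in cKO, none was called by edgeR or DESeq2, none reached an unadjusted p under 0.05, and the median log2 fold change was -0.008 against 0.0 over all genes. *Cyp1b1*, a monooxygenase, was at 76.6, 75.6 and 82.4 CPM in controls and 66.5, 78.1 and 84.1 CPM in cKO (-0.036, SE 0.078, 95% interval -0.21 to 0.13). *Tiparp*, an ADP-ribosyltransferase that represses AhR, was at 50.4, 54.3 and 62.3 CPM in controls and 58.8, 56.7 and 62.1 CPM in cKO (0.089, SE 0.078, 95% interval -0.080 to 0.26). *Ahrr*, the AhR repressor, was at 4.40 to 6.04 CPM over the 6 libraries (-0.072, SE 0.134). *Cyp1a1*, the classical readout of ligand-activated AhR, was at 0.27 to 0.58 CPM in all 6, and *Cyp1a2* had 0 counts in every one. *Ugt1a6a* and *Ugt1a6b* held the same counts in each library and amount to 1 measurement.

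The sequences before the starts of these genes show where the core of the xenobiotic response element lies, beside that of *Cadps*. The motif searched was GCGTG, on both strands (CACGC on the strand printed), in the 250 bases before each start in the RefSeq table for GRCm38.p6. Of the 10 targets, 8 were in the table, and 4 of these held it, against 28.2% of all 32851 windows of that length. Capitals mark the motif, each sequence runs 5′ to 3′ toward the gene's start, and the first 3 are the expressed targets given above. The match lies 76 bases before the start in *Cyp1b1* and 170 in *Tiparp*, and *Ahrr* holds matches at 107, 82 and 27 bases. The window of *Cadps* does not hold these letters; *Thy1* and *Ahr* were not in the table.
Cyp1b1, chr17:79715062-79715311, minus strand: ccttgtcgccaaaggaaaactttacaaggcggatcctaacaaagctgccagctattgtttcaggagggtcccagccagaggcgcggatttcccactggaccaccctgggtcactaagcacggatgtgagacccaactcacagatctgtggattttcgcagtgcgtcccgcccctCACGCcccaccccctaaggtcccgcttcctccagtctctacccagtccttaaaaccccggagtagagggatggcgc
Tiparp, chr3:65528197-65528446, plus strand: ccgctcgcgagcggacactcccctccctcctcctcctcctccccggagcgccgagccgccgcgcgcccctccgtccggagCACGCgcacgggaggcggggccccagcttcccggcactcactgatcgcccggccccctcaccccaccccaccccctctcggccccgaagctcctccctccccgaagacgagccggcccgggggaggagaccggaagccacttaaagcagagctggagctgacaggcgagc
Ahrr, chr13:74292332-74292581, minus strand: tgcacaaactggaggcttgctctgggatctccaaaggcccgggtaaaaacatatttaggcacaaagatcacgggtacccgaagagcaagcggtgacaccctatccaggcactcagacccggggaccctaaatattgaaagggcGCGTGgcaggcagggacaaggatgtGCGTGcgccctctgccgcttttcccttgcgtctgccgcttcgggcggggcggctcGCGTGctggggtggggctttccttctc
Cadps, chr14:12823080-12823329, minus strand: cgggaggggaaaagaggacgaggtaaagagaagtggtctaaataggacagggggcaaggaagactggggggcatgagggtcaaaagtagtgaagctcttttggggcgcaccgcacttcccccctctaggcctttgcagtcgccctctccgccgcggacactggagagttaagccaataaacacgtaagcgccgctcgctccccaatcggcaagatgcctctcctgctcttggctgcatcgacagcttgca

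The partners of AhR held no call. None of the 10 genes of the AhR complex list, which counts *Ahr* itself, was called by edgeR or DESeq2. An unadjusted p under 0.05 by edgeR was reached by 1, and the median difference of the 10 was 0.038. *Hsp90ab1*, the constitutive cytoplasmic Hsp90, was that gene and the 1 of 10 without overlap, near the 11.5% of all genes tested: 1204, 1322.7 and 1174 CPM in controls and 1399, 1323.1 and 1371 CPM in cKO (0.14, SE 0.066). *Arnt*, the DNA-binding partner, differed by 0.084 (SE 0.104) and *Ptges3* (p23) by 0.11 (SE 0.077).

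Genes of vesicle release showed *Cadps* as the exception of its list. Of 22 genes for priming, docking and fusion, *Cadps* was the 1 called, and 19 of the 22 had a higher mean in cKO, with a list median of 0.11. The paralogue *Cadps2*, which also primes dense-core vesicles, was at 36.2, 43.5 and 36.03 CPM in controls and 45.0, 36.7 and 43.3 CPM in cKO, with overlap (0.11, SE 0.090). The calcium sensors *Syt1* (0.24, SE 0.071) and *Syt7* (0.29, SE 0.091) and the vesicle GTPase *Rab27b* (0.15, SE 0.119) were higher in cKO without overlap, against 6.14% of all genes tested, and none was called. *Syt7* was at 297, 299.5 and 300.5 CPM in controls and 415, 312 and 368 CPM in cKO. The priming factors *Unc13a* (0.17, SE 0.082) and *Unc13b* (0.004, SE 0.063) overlapped between groups. The cargo of dense-core vesicles, 12 genes including the granins *Chga* (0.096, SE 0.095) and *Scg2* (0.10, SE 0.068), held no call, 1 unadjusted p under 0.05 and a median of 0.063.

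Genes of axon growth and adhesion included *Thy1* as their 1 call of 12. Of the other 11, 9 were higher, 3 of them without overlap against 6.14% of all genes tested, with a median of 0.089. *Ncam1*, an adhesion molecule of neurons and Schwann cells, was at 71.3, 91.7 and 82.3 CPM in controls and 100.8, 99.96 and 105.4 CPM in cKO (0.32, SE 0.083). *L1cam* (0.23, SE 0.099) and *Sema6d* (0.19, SE 0.071) were the other 2. *Gap43*, the growth-cone protein, differed by 0.076 (SE 0.075) and *Stmn2* by 0.031 (SE 0.061).

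Genes of neuronal excitability had higher means in cKO throughout, by small amounts and without a call. All 12 genes of the ion channel list were higher (median 0.18, 1 without overlap, 4 at an unadjusted p under 0.05), as were all 10 sensory transduction genes (median 0.16, 1 without overlap, 2 at an unadjusted p under 0.05). Over all genes tested, 6.14% were higher without overlap and 5.79% had an unadjusted p under 0.05, so the 1 gene without overlap in each list is near that background. *Scn11a*, which encodes the persistent sodium channel Nav1.9 of nociceptors, was at 263, 302 and 277.5 CPM in controls and 369, 312.5 and 357 CPM in cKO (0.30, SE 0.078, adjusted p = 0.754, edgeR). *Scn10a* (Nav1.8) was at 651, 747 and 699 CPM in controls and 874, 716 and 852 CPM in cKO, with overlap (0.22, SE 0.088). *Mrgprd*, a receptor of non-peptidergic nociceptors, was at 248, 267 and 254 CPM in controls and 322, 279.6 and 299.7 CPM in cKO (0.23, SE 0.080). *Trpv1*, the capsaicin receptor, differed by 0.15 (SE 0.073) and *Piezo2*, the touch channel, by 0.17 (SE 0.115). In these lists control replicate 1 was the lowest library, 0.31 log2 units below the mean of the other 5 in summed channel genes and 0.25 below in transduction genes. Its part in the differences was not tested.

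Cholesterol synthesis was the pathway with the most members without overlap. Of 8 genes, 5 were higher in every cKO mouse than in any control, against 6.14% of all genes tested, among them *Hmgcs1*, the synthase that makes HMG-CoA, and *Idi1*, an isomerase of the isoprenoid steps. *Hmgcs1* was at 484, 593 and 593.5 CPM in controls and 649, 601 and 624 CPM in cKO (0.17, SE 0.092). The median of the list was 0.14, none was called by edgeR or DESeq2, and 2 had an unadjusted p under 0.05. Control replicate 1 was again the lowest, at 1545 summed CPM against 1746 to 1800.5 in the other controls and 1840.03 to 1921 in cKO.

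The other 7 pathway lists held no call by edgeR or DESeq2, and 1 of their members, *Gsta4*, had an unadjusted p under 0.05 by edgeR. Genes of the nerve injury response had a median of -0.019, and its leading member *Atf3*, a stress-induced transcription factor, was at 12.6 to 14.4 CPM in controls and 11.04 to 17.3 CPM in cKO. The median was -0.11 for immediate early genes, 0.013 for the circadian clock, -0.002 for the interferon response, 0.005 for the integrated stress response and -0.004 for the antioxidant and xenobiotic response. In the latter, *Gsta4*, which encodes a glutathione transferase, was lower without overlap (-0.36, SE 0.136). The other members of the 7 lists without overlap were *Arc* (0.15, SE 0.148) and *Cry2* (0.12, SE 0.092), both higher in cKO, and *Sesn2* (-0.22, SE 0.191), lower, beside 6.14% and 5.32% of all genes tested. *Fos* and *Egr1*, activity-induced transcription factor genes, were at 16.7 and 40.9 CPM in control replicate 1 and at most 7.56 and 23.2 CPM in the other 5. All 8 antigen presentation genes were lower in cKO (median -0.21) with overlap in each, led by the class II genes *H2-Ab1* (-0.40, SE 0.189) and *H2-Aa* (-0.37, SE 0.203). Their sum was 764, 629 and 789 CPM in controls and 574, 657 and 687 CPM in cKO. The 12 macrophage genes, given below, were all lower too (median -0.27), and both sums were highest in control replicates 1 and 3 and lowest in cKO replicate 1. The part of macrophage content in the difference was not tested.

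**Figure D4:**
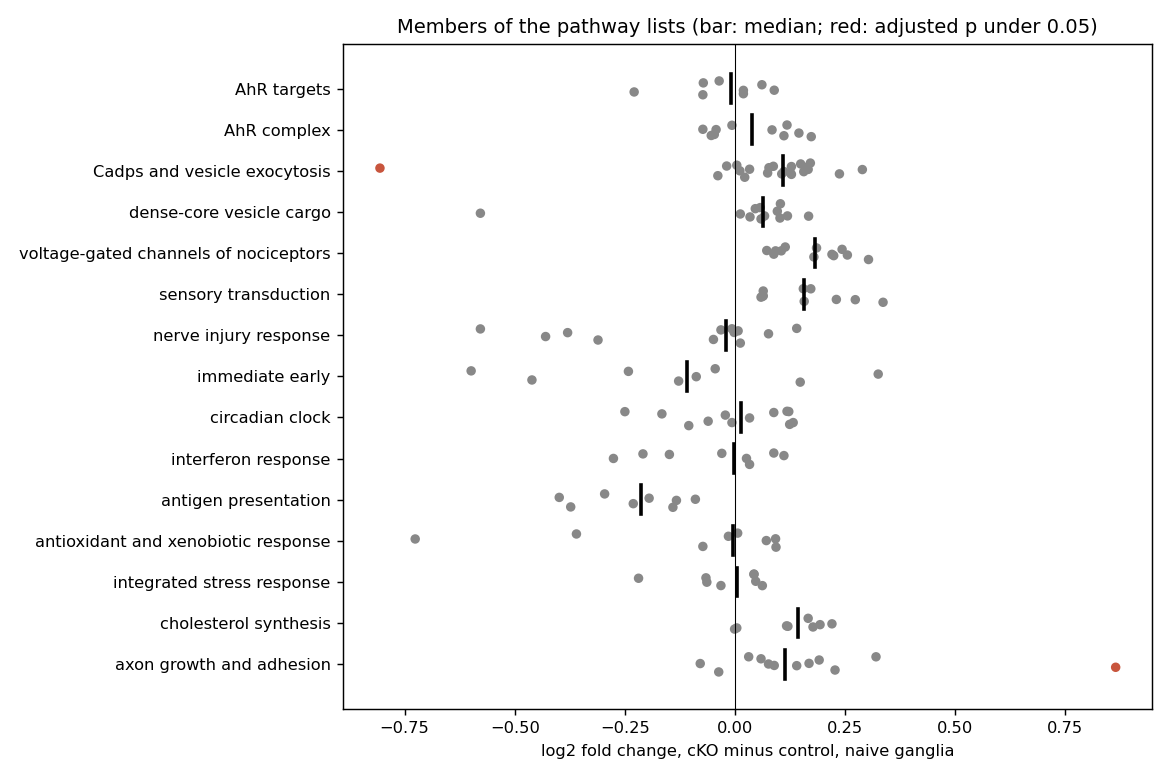
Log2 fold change of cKO against control (x axis) for each tested member of the 15 pathway lists (rows), with a bar at the list's median and red points for genes with an adjusted p under 0.05 (edgeR). *Thy1* and *Cadps* are the red points, at 0.86 and -0.81, and lie apart from the other members of their lists.

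Over all 335 distinct genes of the cell type and pathway lists that were tested, 2 were called, 21 were higher and 7 lower without overlap. That is 8.36% without overlap, below the 11.5% of all genes tested.

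The cell content of the ganglia was read from 24 lists of marker genes, as the summed CPM of each list in each library. In bulk tissue, fewer cells of a type and less RNA per cell cannot be told apart. None of the 189 marker genes tested was called by edgeR (14 at an unadjusted p under 0.05) or by DESeq2, and for 23 of the lists the sums of the genotypes overlapped. With 3 against 3 mice, no list was tested on its own.

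The sums of the neuron and satellite glia lists spanned 1.09-fold to 1.31-fold over the 6 libraries. The 12 pan-neuronal genes summed to 6199 to 6942 CPM in controls and 6354 to 6955 CPM in cKO, a span of 1.12-fold. Peptidergic nociceptor genes such as *Calca* and *Tac1*, the precursors of CGRP and substance P, spanned 1.09-fold. Satellite glia genes summed to 2558 to 2719 CPM in controls and 2558 to 3039 CPM in cKO. *Kcnj10*, the potassium channel of satellite glia, was at 119.6, 136.5 and 129 CPM in controls and 129, 174 and 149 CPM in cKO (0.23, SE 0.10). Non-myelinating Schwann cell genes spanned 1.19-fold. Of these 8 genes, 7 were higher in cKO (median 0.15), *Ncam1* and *L1cam* without overlap, beside 6.14% of all genes tested.

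Among the neuron types, the non-peptidergic nociceptor genes were at 1712 to 1901 CPM in controls and 1895 to 2200.02 CPM in cKO. Of the 10 genes, 8 were higher, with a median of 0.19, and *Mrgprd*, *Scn11a* and *Lpar3* (a lysophosphatidic acid receptor gene) did not overlap, beside 6.14% of all genes tested that were higher without overlap. The 2 lower genes were the itch genes *Nppb* (-0.21, SE 0.170) and *Mrgpra3* (-0.046, SE 0.094). *Sst* (0.22, SE 0.177) and *Mrgprb5* (0.11, SE 0.156) were higher, with overlap. All 6 genes of C-fibre low-threshold mechanoreceptors were higher (median 0.17), with *Slc17a8* (a vesicular glutamate transporter gene; 0.28, SE 0.135) and *Fam19a4* (the chemokine-like TAFA4; 0.18, SE 0.066) without overlap, beside the same 6.14%. *Th*, their tyrosine hydroxylase, was at 54.4, 52.0 and 41.5 CPM in controls and 63.5, 46.3 and 47.7 CPM in cKO. The 12 genes of myelinated mechanoreceptors and proprioceptors divided evenly into 6 higher and 6 lower, among them *Nefh* (0.035, SE 0.117) and *Pvalb*. Their sum was 3372 to 4381 CPM in controls and 3681 to 4358 CPM in cKO. Cold-sensing neuron genes summed to 59.7 to 68.8 CPM in controls and 65.9 to 72.1 CPM in cKO. Of the 3 genes, *Trpm8*, the cold receptor, had a higher mean in cKO (0.27, SE 0.143) and *Foxp2* (-0.24, SE 0.190) and *Penk* (-0.15, SE 0.241) lower ones, so the log2 difference of the sums, 0.081, became -0.005 as a mean of log2 CPM.

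Myelinating Schwann cell content varied from mouse to mouse within both genotypes. The 12 genes summed to 4835, 4426 and 5852 CPM in control replicates 1 to 3 and to 3830.04, 6133 and 3714 CPM in cKO replicates 1 to 3. Thus cKO replicate 2 was the highest of all and the other 2 cKO mice were the lowest. *Pmp22*, a myelin membrane protein gene, was at 981, 989 and 1143 CPM in controls and 904, 1329.8 and 854 CPM in cKO. *Egr2*, the transcription factor that drives myelination, was at 25.2 CPM in control replicate 3 and 27.6 CPM in cKO replicate 2 and at 10.2 to 12.7 CPM in the other 4. Endothelial genes had the same highest library, at 278 CPM in cKO replicate 2 against 167 to 228 CPM in the rest.

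Resident and blood-borne immune markers had lower medians in cKO, with overlap in nearly every gene. All 12 macrophage genes were lower (median -0.27), but their sum was 291, 212 and 304 CPM in controls and 192, 271 and 236 CPM in cKO. The complement gene *C1qa* was at 41.0, 29.2 and 46.5 CPM in controls and 23.3, 39.4 and 33.6 CPM in cKO (-0.28, SE 0.207). All 7 tested T, NK and B cell genes were lower by the fit (median -0.46), with *Cd3e* and *Ms4a1*, at most 1.12 CPM in any library, without overlap, beside 5.32% of all genes tested that were lower without overlap. Their sum was 14.1, 7.36 and 6.65 CPM in controls and 6.36, 7.65 and 7.04 CPM in cKO, so control replicate 1 stood above the rest and the other 2 controls lay among the cKO mice. The 5 erythroid genes were lower (median -0.58). Their sum was 611, 587 and 399 CPM in controls and 263, 427 and 405 CPM in cKO, and the globin genes in it are near-identical pairs that share reads.

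Mast cell genes were the 1 list whose sums did not overlap, at 81.3 to 85.5 CPM in controls and 91.2 to 94.97 CPM in cKO, and the list's parts went opposite ways. *Kit*, a receptor that sensory neurons also express, was at 55.6, 65.8 and 59.9 CPM in controls and 73.0, 71.3 and 76.3 CPM in cKO (0.28, SE 0.075). The 4 mast cell proteases were lower, with a median of -0.26. Their sum without *Kit*, a division made after the values were seen, was 19.7 to 25.6 CPM in controls and 16.7 to 23.6 CPM in cKO. The list's log2 difference was 0.15 with *Kit* and -0.27 without it.

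Control replicate 1 departed from the other mice in several marker lists. It was at least 1 log2 unit above the mean of the other 5 naive libraries for 6 of the 24 lists: skeletal muscle (2.32), neutrophil and bone marrow (1.98), adipocyte (1.98), proliferating cell (1.56), leptomeningeal cell (1.51), and T, NK and B cell (1.01). It stood at 0.14 for fibroblast, 0.13 for perineurial, 0.088 for pericyte and smooth muscle and 0.19 for endothelial genes. *S100a8* and *S100a9*, which form the abundant calprotectin of neutrophils, were at 212 and 373 CPM there and at 36.9 to 112 and 59.0 to 194 CPM in the others. *Mpo* and *Elane*, enzymes of bone marrow precursors, were at 27.5 and 14.4 CPM against at most 12.4 and 7.05 CPM. *Mki67*, the proliferation antigen, was at 40.4 CPM against at most 23.1 CPM. *Ptgds*, a prostaglandin synthase of the leptomeninges, was at 235 CPM against 17.1 to 115 CPM. Immunoglobulin genes, summed after their share of the first component had been seen, were at 906 CPM in control replicate 1 and 268 to 525 CPM in the other 5. They made up 32 of the 100 genes of strongest loading on that library's side.

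Other libraries departed as well. In cKO replicate 3, bone and cartilage genes stood 1.69 log2 units above the mean of the other libraries, and leptomeningeal genes stood at -1.44 and adipocyte genes at -1.17 from it. Control replicate 2 stood at -1.41 for neutrophil, -1.12 for skeletal muscle and -1.08 for adipocyte genes. In cKO replicate 1, skeletal muscle and bone genes stood at -1.15 and -1.11. Skeletal muscle genes were lowest in cKO replicate 2, at -1.38. Beside these shifts, the medians of the fitted differences were as follows: skeletal muscle had -1.08, leptomeningeal genes -0.59, neutrophil genes -0.46, adipocyte genes -0.43 and bone and cartilage genes 0.40, with overlapping sums in each. For the neutrophil list, the mean log2 of the sums gave 0.065 although all 8 members were lower by the fit. Fibroblast (median -0.21), perineurial (-0.12), endothelial (-0.052), pericyte and smooth muscle (-0.042), proliferating cell (-0.22) and spinal cord (0.058) lists overlapped too. With control replicate 1 left out, the same number of genes, 2, was called, and 553 rather than 1232 genes had an unadjusted p under 0.05. With control replicate 2 left out, that number was 2942, with cKO replicate 2 left out 1894, and with cKO replicate 3 left out 722.

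**Figure D5:**
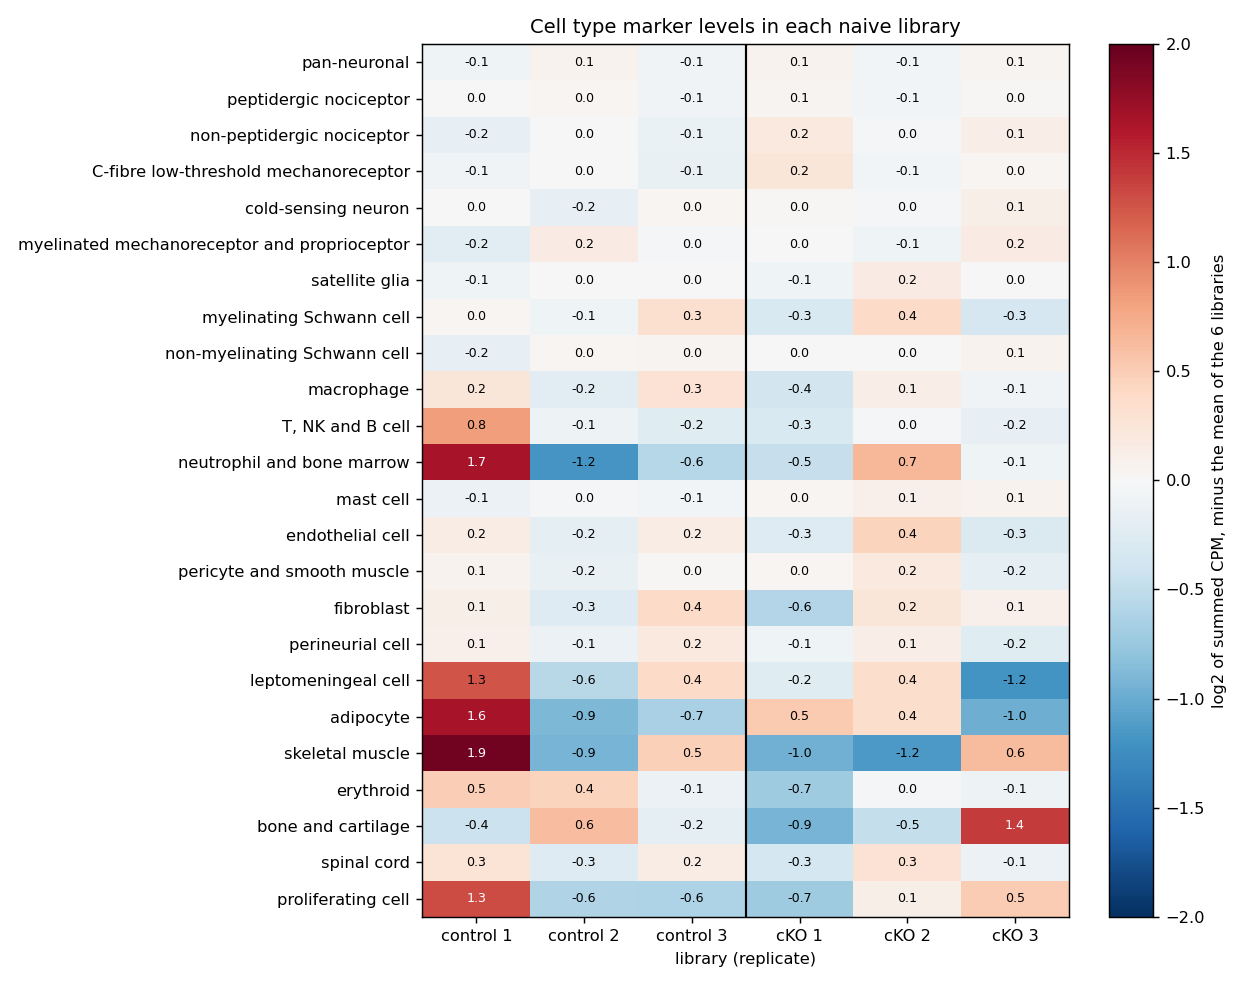
Summed CPM of the 24 cell type marker lists (rows) in each naive library (columns), as log2 minus the mean of the 6 libraries, with red above and blue below that mean. Rows of neurons and satellite glia span 1.09-fold to 1.31-fold, while control replicate 1 is red for neutrophil and bone marrow, leptomeningeal, adipocyte, skeletal muscle and proliferating cell genes.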

How the data were processed

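RNA was prepared with an RNeasy Plus Mini kit and libraries with TruSeq Stranded mRNA, per the labels' protocols. The submitters' processing notes name Trim Galore, HISAT2, featureCounts and mm10; versions and strand setting are not given in the sources used here. The deposited counts are whole numbers per gene. The deposited FPKM divide by gene span including introns (within 0.1% for 100.0% of counted genes), and no result rests on them. Of 55401 identifiers, 55141 matched a GENCODE M21 symbol.

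The 12 naive and crushed libraries were fitted together with edgeR 4.0.16 in R 4.3.3 (filterByExpr, minimum count 10 and total 15; TMM; 1 mean per group; two-sided). Calls have a Benjamini-Hochberg adjusted p under 0.05 over 21261 genes, and the SE is the log2 fold change over the square root of F. Sham and cultured libraries were fitted apart. Replicates are separate mice, and no pair agreed within counting noise (chi-square per degree of freedom 3.14 to 14.5).

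The members, gene lists and tests were chosen with earlier results of these data known. Genes were named by rule: *Ahr*, *Thy1*, *Cadps*, calls, the 10 smallest p per direction (at least 1 CPM, no overlap), the 5 largest folds per direction, 5 neighbours per side, and of each list the first 4 members, calls and members without overlap. Clone, model and predicted names were left out of the smallest p, the largest folds and the neighbours. Sex-linked genes were left out of the smallest p and the largest folds. Other list members, such as *Apoe* and *Egr2*, were picked after their values were seen, and some list members are not reported here. Alternatives were RLE factors, DESeq2 1.42.0, other filters, the 6 naive libraries alone, replicate blocks, an adjusted p under 0.1, a glia to neuron ratio as covariate, and leaving out each library, or pairs of crushed libraries by their sex transcripts.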

Additional observations from a re-analysis of the deposited data

Results flagged for a closer look

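For 3 of the genes named, the genotype groups did not overlap in naive and in crushed ganglia and differed in opposite directions. The same held for 62 of all 21261 genes tested, 0.292%, and these 62 lie among the 2437 genes without overlap in naive ganglia. Many named genes were chosen because their naive groups did not overlap, so their count is not comparable with that share. The difference was tested as an interaction in the fit of 12 libraries, and none passed (adjusted p = 1 for each, edgeR). *Fbxl18*, an F-box protein gene, had a log2 fold change of 0.235 in naive and -0.089 in crushed ganglia (interaction 0.324, SE 0.075). *Zfp972*, a zinc finger gene, had -0.277 in naive and 0.201 in crushed ganglia (interaction -0.478, SE 0.095). *Fam19a4*, a marker of C-fibre low-threshold mechanoreceptors, had 0.178 in naive and -0.153 in crushed ganglia (interaction 0.331, SE 0.092). Without the 2 crushed libraries that went against their labelled sex, the 3 genes had -0.086, 0.224 and -0.186 in crushed ganglia, and without the 2 male crushed libraries -0.117, 0.227 and -0.112. Groups of 3 libraries were too small for the test of single outlying samples.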

How the results depend on the processing

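The 2 calls held with RLE factors, both other filters, an adjusted p under 0.1 and the composition covariate, and DESeq2 called 3. The count was 0 in the 6 naive libraries alone and 1 to 2 when a library was left out. It was 1, *Thy1*, without the 2 crushed libraries that went against their labelled sex and 1, *Thy1*, without the 2 male crushed ones, both chosen after seeing the data. The cause was not tested. Replicate numbers showed no pairing of the naive mice: same-numbered deviations correlated at -0.251, -0.418 and -0.016. With deviations from means of 3 mice, this check cannot decide whether equal numbers share a batch. With the replicate block, 1 gene (*Thy1*) was called in 12 libraries, where *Cadps* had a log2 fold change of -0.80 (adjusted p = 0.0584, edgeR), and 0 in the 6 naive libraries alone. No sample correlated best with its own number. Leaving out 1 library reversed *Bglap* (-1.55 to 1.80), *Myl1* (-2.60 to 0.027) and *Myh1* (-4.02 to 1.11). The mast cell difference of 0.15 was -0.17 as a mean of log2 CPM and -0.27 without *Kit*, an alternative chosen after seeing the data, as were the list without *Thy1* and the immunoglobulin sum. Of 24 cell type lists, 14 took the other sign under some setting, among them neutrophil and bone marrow (0.065, down to -0.51) and adipocyte (-0.067, up to 0.74). The interaction count stayed at 0 in all 14 alternatives run. Intervals within 1.5-fold were reached by 96.2% of genes of at least 10 CPM and by 74.6% of all tested; counting depth and scatter between mice were not separated.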
